A study of Sus scrofa with 6 samples.

Results

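A set of 6 microRNAs (miRNAs) known from epithelia and keratinocytes, the main cells of the epidermis, were followed in skin of Xiang pigs. They are ssc-miR-205, ssc-miR-31, ssc-miR-429 and the clustered ssc-miR-183, ssc-miR-96-5p and ssc-miR-182. They were chosen by name and make up 6 of the 898 miRNAs listed. Small RNA was sequenced in 3 libraries of black skin (S03, S04 and S05) and 3 libraries of white skin (S02, S06 and S07) of this Chinese breed. All skin had its hair removed and was disinfected with alcohol and then kept in RNAwait, a preservative, in the cold. The labels give skin colour as the difference between the groups and state no genotype, age, sex, body site or animal, so the p-values reflect the spread among these libraries alone, which may be technical.

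miRNAs are short RNAs that lower the stability and translation of mRNAs with matching sites. miR-205 is a main miRNA of basal keratinocytes and hair follicle stem cells, and miR-429 belongs to the miR-200 family. Both repress the transcription factors ZEB1 and ZEB2, which drive epithelial cells towards a mesenchymal state. miR-31 is known from growing hair follicles of mice and from wounded or inflamed human keratinocytes. miR-183, miR-96 and miR-182 are cut from neighbouring precursors and are best known from sensory cells, and miR-182 has been described as a repressor of MITF, the master regulator of melanocytes, in human melanoma cells.

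Levels are given in RPM, reads per 1000000 miRNA reads of a library. The libraries hold 6454685 to 10165949 reads, and 1 read is worth 0.0984 to 0.155 RPM. Skin was also checked by markers of other cells. The summed RPM of the smooth muscle miRNAs miR-143 and miR-145 was 64998 to 84502 in black skin and 26728 to 34192 in white skin. The endothelial miR-126 summed to 28989 to 35451 RPM in black skin and 17322 to 23899 RPM in white skin. Of the melanocyte names miR-204 and miR-211, miR-211 was not analysed here. miR-204 alone ranged over 88.5 to 135 RPM in black skin and 57.7 to 71.1 RPM in white skin. These 3 sets did not overlap between the groups, as was so for 27.3% of all miRNAs tested, whereas the sums of fibroblast, leukocyte, erythroid and striated muscle miRNAs overlapped. In the limma test over all miRNAs, both arms of miR-126 were called, as was 1 of the 4 smooth muscle products, ssc-miR-143-3p, which carries most of that sum, while miR-204 was not (limma, adjusted p = 0.0804). Within the sums that overlapped, 1 of 4 leukocyte products, ssc-miR-142-3p, was called higher in black skin (1.96, limma, adjusted p = 0.0324). Of 5 fibroblast products, 1 was called lower, ssc-miR-214 (-0.88, limma, adjusted p = 0.0408). No erythroid or striated muscle product was called. RPM are shares, so such marker sums move the values of all other miRNAs. In whole skin, fewer cells of a type and less RNA per cell cannot be told apart. The part of these cell types in the values below was not tested. Of 11 epidermal marker names, miR-203, miR-200a, miR-200b, miR-200c and miR-141 were not analysed here, and the other 6 are the miRNAs described.

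The 6 miRNAs spanned more than 2 orders of magnitude and stood in the same order in each of the 6 libraries. Averaged over the 6 libraries, ssc-miR-205 measured 17034 RPM, ssc-miR-182 5962 RPM, ssc-miR-183 2369 RPM, ssc-miR-96-5p 647 RPM, ssc-miR-429 384 RPM and ssc-miR-31 67.9 RPM. Levels of different miRNAs are set side by side without correction for length or capture. ssc-miR-205 ranked 12 to 16 among all 898 miRNAs, while ssc-miR-31 ranked 128 to 220. Between neighbours in this order the ranges were apart, except that ssc-miR-96-5p, at 518 to 760 RPM, and ssc-miR-429, at 282 to 548 RPM, overlapped. Within each library, however, ssc-miR-96-5p was the higher of the pair, by 1.79-fold to 2.26-fold in black skin and 1.12-fold to 1.91-fold in white skin. Together the 6 made up 2.25 ± 0.354% of the reads in black skin and 3.05 ± 0.602% in white skin (SD, n = 3 each). The white library S07, at 2.36%, lay within the black range of 1.88% to 2.59%, so the groups overlapped.

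**Figure D1:**
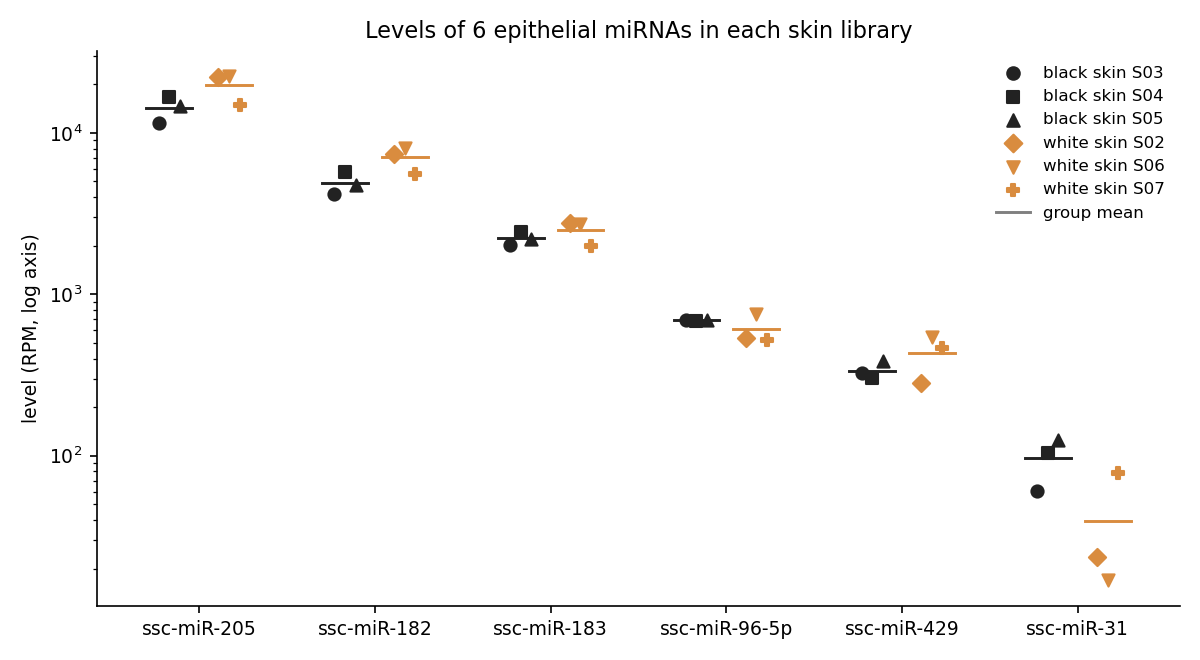
RPM of each miRNA on a log axis, with 1 point per library, black skin left of white skin, and a line at each group mean (n = 3). The white library S07 lies beside the black libraries for ssc-miR-31, ssc-miR-205, ssc-miR-183 and ssc-miR-182.

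Skin colour was the comparison of the series, and none of the 6 miRNAs passed it. The difference in log2(RPM + 1), black minus white, was tested with limma over all 454 miRNAs with enough reads, and all 6 miRNAs were among these. At an adjusted p under 0.05, 32 miRNAs were called, that is 7.05% of those tested, against 0 of the 6. At an unadjusted p under 0.05 there were 116 among all tested and 2 among the 6, ssc-miR-31 and ssc-miR-182. edgeR and DESeq2 on the recovered reads also called 0 of the 6. The black and white libraries were apart without overlap for 27.3% of the miRNAs tested, and for 0 of the 6. The median difference was -0.23 over the 6 and 0.0022 over all tested, with 4 of the 6 below 0 and 2 above. The intervals of the differences, given with each miRNA, are not adjusted over the 454 miRNAs tested, unlike the adjusted p-values. An interval can thus exclude 0 where the adjusted p does not pass. They rest on the spread among these libraries, so they do not bound the difference between black and white skin in general.

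**Figure D2:**
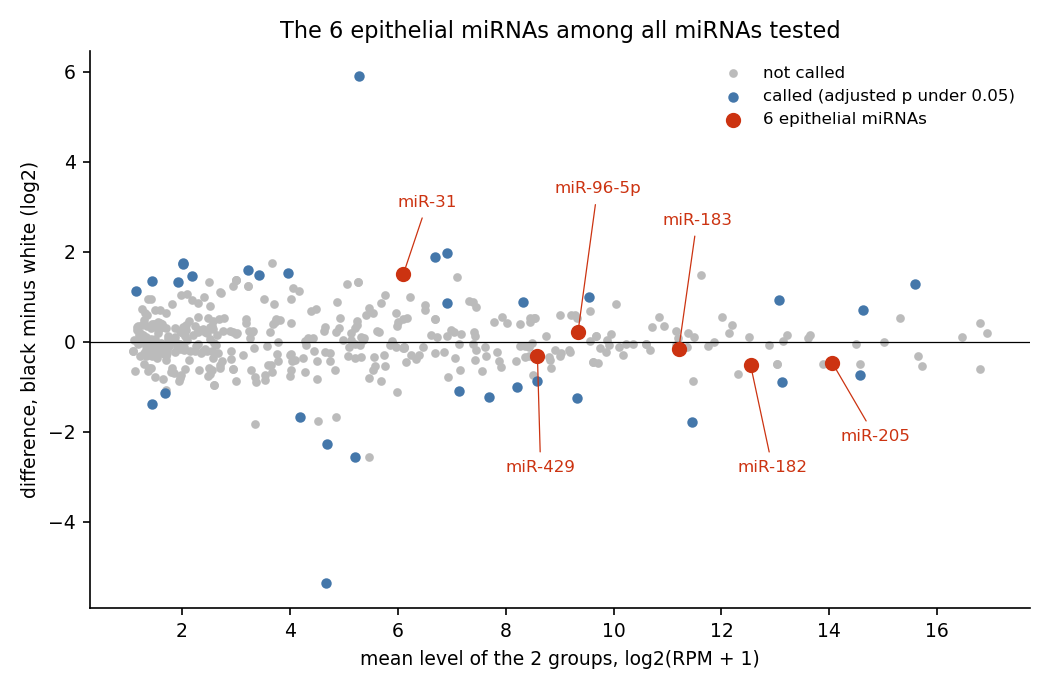
Difference between black and white skin (log2, black minus white) against the mean level of the groups (log2(RPM + 1)) for the 454 miRNAs tested, with called miRNAs in blue and the 6 epithelial miRNAs in red. ssc-miR-31 lies near the upper edge, ssc-miR-205 and ssc-miR-182 lie below 0, and none of the 6 is called.

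ssc-miR-205, the most abundant of the 6, was lower on average in black skin without passing the test. It measured 11483, 16639 and 14589 RPM in black S03, S04 and S05, against 22077, 22514 and 14898 RPM in white S02, S06 and S07. White S02 and S06 stood above all others, while white S07 lay between black S05 and S04. The means were 14237 ± 2596 RPM in black skin and 19830 ± 4277 RPM in white skin (SD, n = 3). The difference of -0.47 had a standard error of 0.21 and a 95% interval of -0.95 to 0.01 (limma, adjusted p = 0.204). Counting error is small here, since each library held at least 88948 reads of this miRNA. The precursor lies on chromosome 9 of Sscrofa11.1 at 133517078 to 133517146, within the annotated long non-coding RNA LOC102159171.

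ssc-miR-429, the miR-200 family member, varied more among white than among black libraries. It measured 324, 302 and 386 RPM in black S03, S04 and S05, against 282, 548 and 463 RPM in white S02, S06 and S07. White skin thus held both the lowest and the highest value, and the black libraries lay between them. The means were 337 ± 43.5 RPM in black skin and 431 ± 136 RPM in white skin (SD, n = 3), and the difference of -0.31 had a 95% interval of -0.90 to 0.29 (limma, adjusted p = 0.546). No difference relative to ssc-miR-205 was detectable either. The log2 ratio of ssc-miR-429 to ssc-miR-205 was -5.39 ± 0.34 in black and -5.55 ± 0.66 in white skin (SD, n = 3; exact permutation test, two-sided, p = 0.8, and 0.8 adjusted over 4 ratios). Without white S02, the ratio differed by -0.21 in place of 0.16. The precursor lies on chromosome 6 at 63491921 to 63492001, outside annotated genes and 2757 bases from TTLL10, and no other annotated precursor was within 10000 bases.

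ssc-miR-31 showed the widest differences between libraries. It measured 60.5, 104 and 124 RPM in black S03, S04 and S05, against 23.7, 16.9 and 77.7 RPM in white S02, S06 and S07. White S02 and S06 were the lowest of all 6 libraries, whereas white S07 exceeded black S03, so the groups overlapped. The means were 96.4 ± 32.6 RPM in black skin and 39.4 ± 33.3 RPM in white skin (SD, n = 3), so the black mean was 2.44-fold higher. The difference in log2(RPM + 1) was 1.52, with a standard error of 0.52 and a 95% interval of 0.34 to 2.69 (limma, adjusted p = 0.119). Among all miRNAs tested, this difference stood at percentile 98.2, counted from the most negative. Its SD within groups, 0.88 on the log2 scale, stood at percentile 95.8, and the median SD over all tested was 0.34.

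The call of ssc-miR-31 changed when the white library S07 was left out. S07 held the highest white value, so leaving it out was bound to widen the difference. The fit without S07 called 14 of 481 miRNAs tested. Without S07 the difference was 2.15 (limma, adjusted p = 0.0255), past the threshold. Without any other single library it was 1.08 to 1.82 and did not pass (limma, adjusted p = 0.134 to 0.312). The lowest value, in white S06, rests on 109 reads, with a counting error of 9.58% of the value, far below the difference between libraries. The precursor lies on chromosome 1 at 201198732 to 201198809, outside annotated genes, between MTAP and IFNE.

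**Figure D3:**
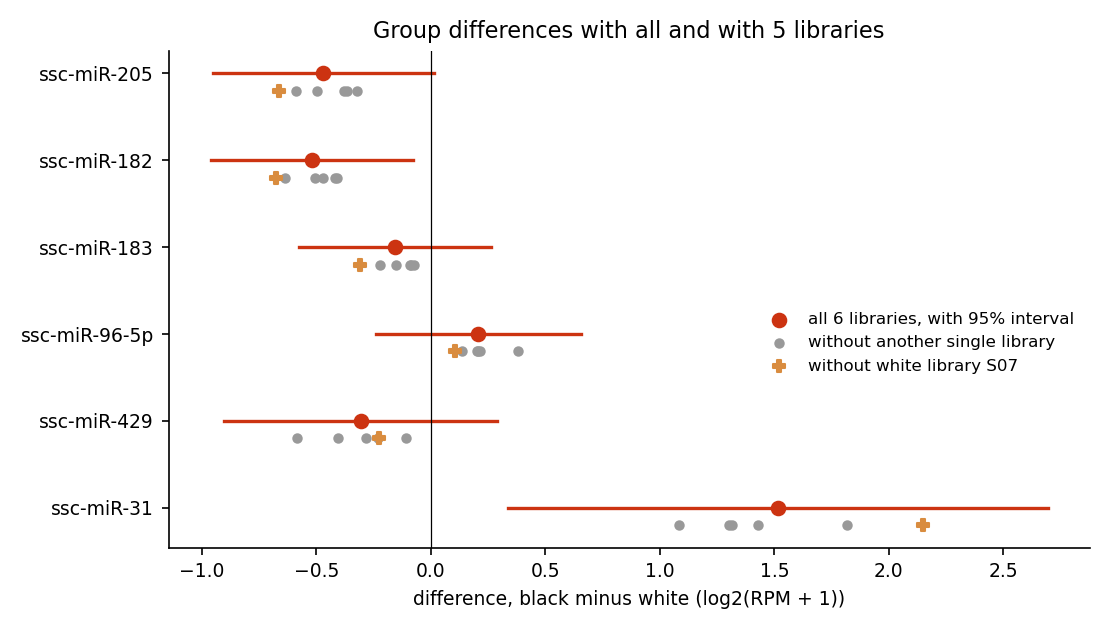
Difference between black and white skin (log2(RPM + 1), black minus white) for the 6 miRNAs, with the 95% interval from all 6 libraries in red, and below it the values with 1 library left out. Leaving out white S07 (cross) moves ssc-miR-31 to 2.15, while ssc-miR-205 and ssc-miR-182 move to -0.66 and -0.68.

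The ratio of ssc-miR-31 to ssc-miR-205 sets the scarcest of the 6 against the most abundant within each library, free of the scaling between libraries. ssc-miR-205 exceeded ssc-miR-31 by 190-fold, 159-fold and 117-fold in black S03, S04 and S05, against 932-fold, 1333-fold and 192-fold in white S02, S06 and S07. The groups did not overlap, but white S07 and black S03 were nearly equal, and 37.7% of the 29161 ratios between any 2 of the 242 tested miRNAs with a miRBase-style name did not overlap either. The log2 ratio of ssc-miR-31 to ssc-miR-205 was -7.24 ± 0.35 in black and -9.22 ± 1.46 in white skin (SD, n = 3). By a two-sided exact permutation test p was 0.1, below which 3 against 3 libraries cannot go, and 0.133 when adjusted over the 4 ratios compared.

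The cluster of miR-183, miR-96 and miR-182 lies on chromosome 18, between UBE2H and NRF1 and outside annotated genes. The precursors stand at 18982269 to 18982338 (MIR183), 18982506 to 18982590 (MIR96) and 18986830 to 18986913 (MIR182), so that 167 bases separate the first pair and 4239 bases the second. No product of the opposite arm of any of the 6 hairpins was analysed here.

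ssc-miR-182, the most abundant product of the cluster, had a lower mean in black skin. Its levels were 4201, 5689 and 4763 RPM in black S03, S04 and S05, against 7435, 8089 and 5596 RPM in white S02, S06 and S07. The groups overlapped only in black S04 and white S07. The means were 4884 ± 751 RPM in black skin and 7040 ± 1293 RPM in white skin (SD, n = 3). The difference of -0.52 had a standard error of 0.20 and a 95% interval of -0.96 to -0.08, and it did not pass over all miRNAs (limma, adjusted p = 0.138).

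ssc-miR-183 differed little between the groups. It measured 2035, 2442 and 2214 RPM in black S03, S04 and S05, against 2783, 2739 and 2000 RPM in white S02, S06 and S07. White skin held both ends of the range, with S07 the lowest of all. The difference was -0.16 with a 95% interval of -0.58 to 0.26 (limma, adjusted p = 0.677).

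ssc-miR-96-5p, the scarcest product, had the higher mean in black skin. Its levels were 695, 682 and 689 RPM in black S03, S04 and S05, against 539, 760 and 518 RPM in white S02, S06 and S07. The black libraries lay within 1.02-fold of each other, a coefficient of variation of 0.988% that is below the counting error of 1.30% to 1.41% per library, while the white libraries varied by 22.1%. The difference was 0.21 with a 95% interval of -0.24 to 0.66 (limma, adjusted p = 0.599).

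Although each product overlapped between the groups, the make-up of the cluster did not. This was common, since 41.1% of 56 ratios between products of precursors within 10000 bases did not overlap either. Both ratios given next share ssc-miR-182, so they are not independent. ssc-miR-182 exceeded ssc-miR-183 by 2.07-fold, 2.33-fold and 2.15-fold in black S03, S04 and S05, against 2.67-fold, 2.95-fold and 2.80-fold in white S02, S06 and S07. It exceeded ssc-miR-96-5p by 6.04-fold, 8.34-fold and 6.91-fold in the same black libraries, against 13.8-fold, 10.6-fold and 10.8-fold in the white ones. White S07, which lay beside the black libraries for the levels of ssc-miR-182 and ssc-miR-183, lay with the white ones here. Of the reads of the cluster, ssc-miR-182 held 62.4 ± 1.99% in black skin and 69.3 ± 0.446% in white skin (SD, n = 3). ssc-miR-183 held 28.6 ± 0.846% in black skin and 24.7 ± 1.12% in white skin, and ssc-miR-96-5p 8.92 ± 1.15% in black skin and 5.99 ± 0.846% in white skin (SD, n = 3).

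On the log2 scale, the ratio of ssc-miR-96-5p to ssc-miR-182 was -2.81 ± 0.23 in black and -3.54 ± 0.21 in white skin (SD, n = 3). The difference of 0.73 had a two-sided exact permutation p of 0.1, the smallest possible, and 0.133 adjusted over 4 ratios. For ssc-miR-183 to ssc-miR-182 the ratio was -1.12 ± 0.09 in black and -1.49 ± 0.07 in white skin (SD, n = 3), with a difference of 0.36 and the same exact permutation p of 0.1 and 0.133 adjusted. Both differences kept their direction without each library in turn, at 0.61 to 0.85 and at 0.33 to 0.41.

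A fit chosen after these ratios had been seen covered 56 pairs of miRNAs from precursors within 10000 bases of each other. Of these pairs 23.2% passed at an adjusted p under 0.05, and 41.1% did not overlap between black and white skin. The share that passed changed when single libraries were left out, and the cause was not tested. It was 3.39% without black S03, 1.79% without S04 and 17.5% without S05. Without white S02 it was 31.0%, without S06 5.08% and without S07 1.69%. With a pseudocount of 0.1 it was 14.3%. ssc-miR-96-5p to ssc-miR-182 narrowly missed the threshold in that fit (0.73, standard error 0.24, 95% interval 0.19 to 1.27, limma, adjusted p = 0.0513), and ssc-miR-183 to ssc-miR-182 did not pass (0.36, limma, adjusted p = 0.249). In place of a pseudocount of 1, ssc-miR-96-5p to ssc-miR-182 passed with 10 (0.72, limma, adjusted p = 0.0370) and not with 0.1 (0.73, limma, adjusted p = 0.0659), and it passed in no fit that left out a library (limma, adjusted p = 0.0724 to 0.179).

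**Figure D4:**
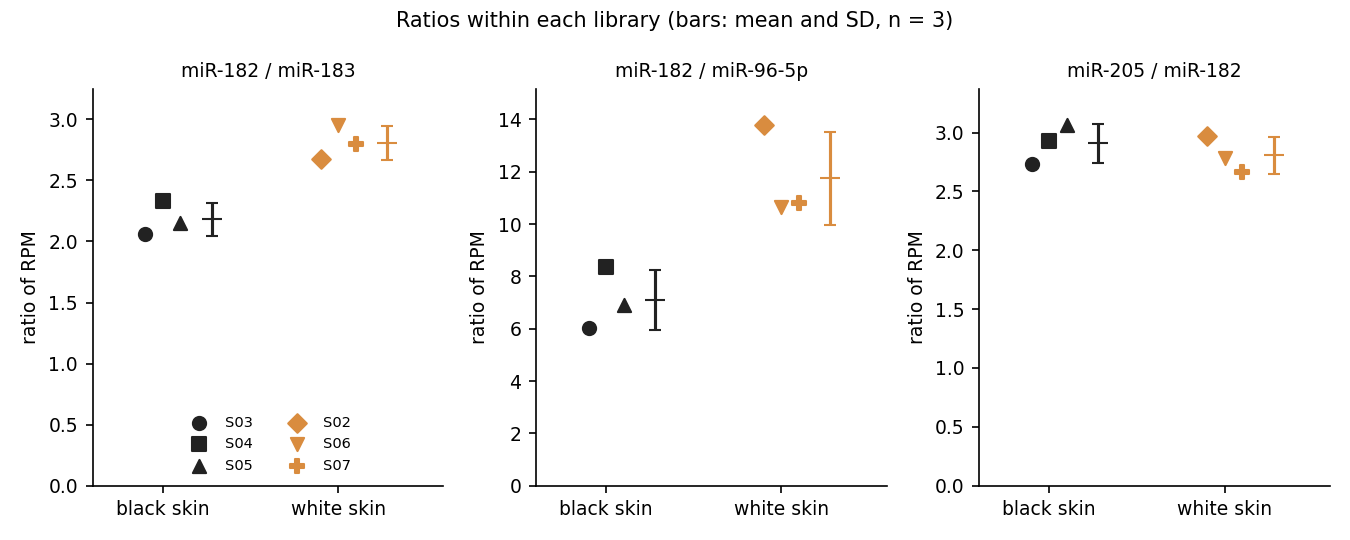
Ratios of RPM within each library, with 1 point per library, black skin left of white skin, and the mean and SD beside them (n = 3, axes from 0). The ratios of ssc-miR-182 to ssc-miR-183 and to ssc-miR-96-5p are lower in every black library than in every white one, whereas the ratio of ssc-miR-205 to ssc-miR-182 stays between 2.66 and 3.06 in all 6. Of 56 ratios between products of neighbouring precursors, 41.1% did not overlap between the groups.

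ssc-miR-182 followed ssc-miR-205, from another chromosome, more closely than it followed the products of its own cluster. The ratio of ssc-miR-205 to ssc-miR-182 was 2.73, 2.92 and 3.06 in black S03, S04 and S05, against 2.97, 2.78 and 2.66 in white S02, S06 and S07, with no separation of the groups. Likeness of profiles was measured as the root-mean-square distance between log2(RPM + 1) values over the 6 libraries, each miRNA centred on its own mean. This distance was 0.071 between ssc-miR-205 and ssc-miR-182, 0.19 between ssc-miR-182 and ssc-miR-183, and 0.41 between ssc-miR-182 and ssc-miR-96-5p. Among all 29161 pairs of the 242 tested miRNAs with a miRBase-style name, 11 were nearer than ssc-miR-205 and ssc-miR-182, and the median distance was 0.53. ssc-miR-31 was at distances of 1.07 to 1.32 from the other 5. The distance grows with the size of the changes, which were widest for ssc-miR-31, so it does not by itself show another shape of profile. The values share libraries and scaling, and the distances are given as a description without a test.

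**Figure D5:**
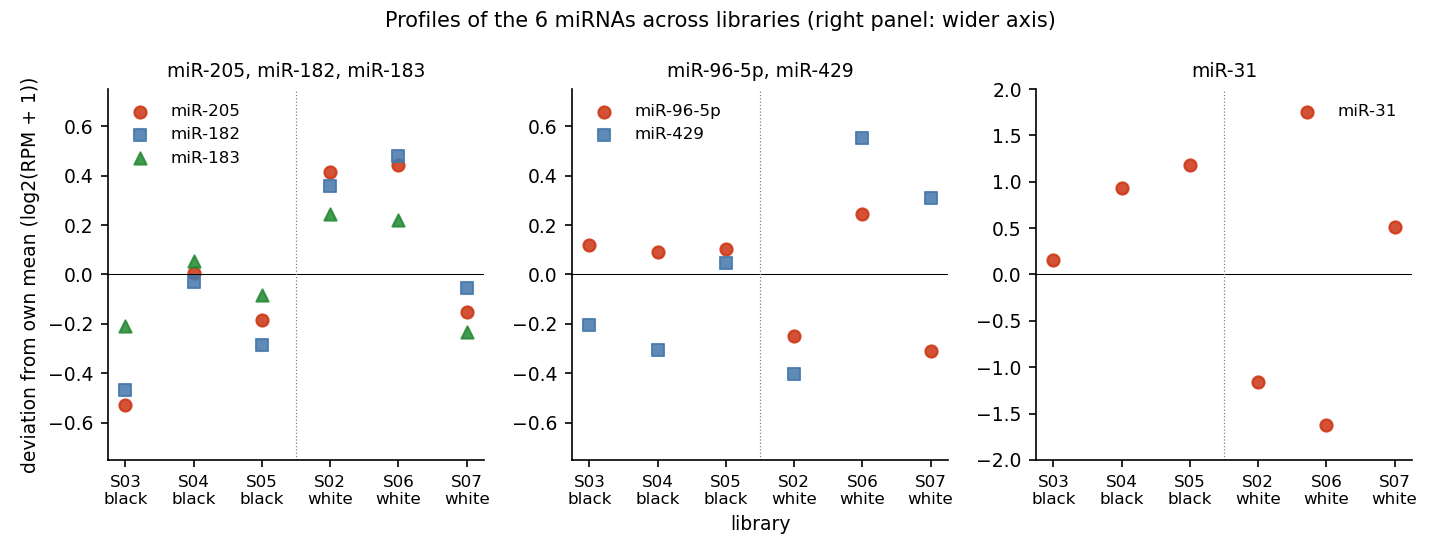
Deviation of log2(RPM + 1) from the mean of each miRNA, by library, with black libraries left of the dotted line and white libraries right of it. ssc-miR-205, ssc-miR-182 and ssc-miR-183 are high in white S02 and S06 and lower elsewhere, and ssc-miR-31, on a wider axis, is lowest in those libraries.

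Outside the 6, a list of 22 names known from keratinocytes and hair follicles in general was looked up. Products of 16 of these names were analysed here, with several products for some names. Of the 19 products tested, 1 was higher in black skin, 1 was lower and 17 did not pass. Their median difference was 0.12. ssc-miR-24-2-5p, from a precursor whose main product acts in keratinocyte differentiation, rose in black skin, with 153 ± 15.8 RPM there and 84.1 ± 10.7 RPM in white skin (SD, n = 3; 0.86, limma, adjusted p = 0.0423). That main product, ssc-miR-24-3p, did not pass (0.55, limma, adjusted p = 0.106). Neither did ssc-miR-24-1-5p (0.40, limma, adjusted p = 0.347). ssc-miR-214, which acts on hair follicle growth in mice and is also a fibroblast miRNA, fell, with 269 ± 42.1 RPM in black skin and 497 ± 88.0 RPM in white skin (SD, n = 3; -0.88, limma, adjusted p = 0.0408). Over all tested, 3.96% were called higher and 3.08% lower, so 1 of 19 in each direction is near the background. The most abundant products, ssc-miR-21 (0.19), ssc-miR-99a (-0.01) and ssc-miR-23b (0.12), did not pass (limma, adjusted p = 0.730, 0.971 and 0.718).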

How the data were processed

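Levels of miRNAs came in 1 table that the authors deposited, in RPM; the unit was inferred from column sums of 1000000. The submitters' processing notes name Bowtie and Sscrofa11.1, giving no role. Counter, miRNA database and filters: not given in the sources used here. Every value was a whole multiple of the worth of 1 read (tolerance 0.001), which gave whole reads. No column of values was left out. PCR reads are not independent molecules, so counting errors cover counting only.

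The members and lists were chosen with earlier results of these data known. log2(RPM + 1) was fitted with limma 3.58.1 (R 4.3.3, intensity trend), black minus white. p-values were adjusted by Benjamini-Hochberg across the 454 of 898 miRNAs kept by filterByExpr of edgeR 4.0.16 (minimum count 10, minimum total 15), and the threshold was 0.05. The scale understates changes of scarce miRNAs. Named in the text are the 6 members, the 3 nearest profiles of each, and from the wider list the called and the 3 most abundant products. The other products of miR-24 are named beside the called one. For 4 log2 ratios (pseudocount 1) an exact permutation test, two-sided, was run per ratio. Ratios of neighbouring precursors were fitted with limma without a trend. Alternatives covered scaling, filters, pseudocounts, tools (edgeR, DESeq2 1.42.0 and limma-voom on recovered reads) and leaving out each library. RefSeq's gene table of that build placed all 6 precursors.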

Additional observations from a re-analysis of the deposited data

How the results depend on the processing

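None of the 6 miRNAs reversed its direction under 16 alternatives each (scaling, filter, pseudocount, tool and each library left out), and none passed the threshold in them except ssc-miR-31 without white S07, at 2.15 (limma, adjusted p = 0.0255). With 1 library left out, the differences were -0.66 to -0.32 for ssc-miR-205, 1.08 to 2.15 for ssc-miR-31, -0.59 to -0.11 for ssc-miR-429, -0.68 to -0.41 for ssc-miR-182, -0.31 to -0.07 for ssc-miR-183 and 0.10 to 0.38 for ssc-miR-96-5p. The number of miRNAs called over all tested was 32, 52 with DESeq2, 27 to 35 under the other scalings, filters, pseudocounts and tools, and 7 to 41 without 1 library. It was 9 without black S03, 18 without S04, 7 without S05, 41 without white S02, 7 without S06 and 14 without S07. The cause was not tested. Leaving out the predicted miRNAs before scaling moved the median difference of all tested to -0.14, and ssc-miR-205 and ssc-miR-182 then gave -0.56 and -0.61. The ratio of ssc-miR-429 to ssc-miR-205 reversed without white S02 (-0.21) and was -0.21 to 0.43 with 1 library left out; the cause was not tested. The ratio of ssc-miR-31 to ssc-miR-205 differed by 1.45 to 2.81 with 1 library left out. In the fit over neighbouring precursors, which was added after seeing the data, ssc-miR-96-5p to ssc-miR-182 passed with a pseudocount of 10 (0.72, limma, adjusted p = 0.0370), not with 0.1 (0.73, limma, adjusted p = 0.0659), and in no fit that left out a library (0.61 to 0.85, adjusted p = 0.0724 to 0.179). The fits that left out a library called 1.69% to 31.0% of the pairs, and those with a pseudocount of 0.1 and 10 called 14.3% and 21.4%. No paired analysis could be run, because the labels do not say which black and white libraries, if any, come from the same animal. With 3 libraries a group, the standard errors were 0.19 to 0.52 for the 6 differences. Whether the spread between libraries or the read depth limits these calls more was not tested.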

Other observations

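Some miRNAs outside the 6 had profiles close to theirs over the 6 libraries, by the same root-mean-square distance on the log2 scale. The nearest to ssc-miR-205 was ssc-miR-107, at 0.069, which measured 194 RPM in black skin and 287 RPM in white skin on average. It was also the second nearest to ssc-miR-182, at 0.078, after ssc-miR-205. After these came ssc-miR-1343 (0.13) for ssc-miR-205 and ssc-miR-1468 (0.12) for ssc-miR-182. None of these 3 passed the comparison of black with white skin (limma, adjusted p = 0.176, 0.539 and 0.300). The nearest to ssc-miR-183 were ssc-miR-874 (0.093), ssc-miR-744 (0.10) and ssc-miR-125b (0.11). ssc-miR-96-5p lay nearest to ssc-miR-4331 (0.12), ssc-miR-331-5p (0.13) and ssc-miR-28-3p (0.14), and ssc-miR-429 to ssc-miR-2320-3p (0.12), ssc-miR-219a (0.13) and ssc-let-7e (0.19). Of these, ssc-miR-874, ssc-miR-4331, ssc-miR-2320-3p and ssc-miR-219a were below 10 RPM on average in both groups, where the scale understates changes. No named miRNA was at a small distance from ssc-miR-31, but the distance grows with the spread among libraries, which was wide for ssc-miR-31. The nearest were ssc-miR-424-5p (0.52), ssc-miR-324 (0.55) and ssc-miR-129a-3p (0.60), all below 10 RPM on average in both groups.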
